A study of Danio rerio with 6 samples.

Results

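The genes described here encode proteins of the bone matrix and enzymes that control its mineralization. They were taken by name from the authors' count table, with collagens left out, and are bglap, spp1, sparc, mgp, alpl, phex, entpd5a and enpp1. All 8 names were found, each on a single row of the 31901 rows. Of these, 7 passed the filter on low counts and were tested, and bglap did not pass. RNA was sequenced from the regrowing tail fin of zebrafish (Danio rerio) of the line shha:GFP, whose transgene lights up the shha-expressing cells with green fluorescent protein; shha encodes a Hedgehog ligand. Fish at 4 days after amputation were injected into the body cavity with a buffer of PEG-400, propylene glycol and Tween-80 (vehicle, labelled PEG, 3 libraries) or with 40 mg/kg BMS-833923 in that buffer (BMS, 3 libraries), and fins were taken 5 hours later. BMS-833923 inhibits Smoothened, the membrane protein that carries the Hedgehog signal into the cell, and the purpose stated for the series is to find transcripts that depend on Sonic hedgehog. Both groups carry the transgene, the amputation and the buffer injection, and each library is a pool of 4 regenerates trimmed to the tissue from the shha:GFP domains outward, so tissue nearer the body was left out. The replicates are numbered 2, 3 and 4 in each group. Ages and sexes of the fish are not given in the labels. The labels name pools, not fish, so each p-value refers to the spread between pools.

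Fin rays are dermal bones. Osteoblasts lay them down directly against the fin epidermis, without a cartilage model, and in a regenerating ray young osteoblasts at the outgrowing end mature toward the stump. Mineral forms when calcium phosphate is deposited on collagen. Pyrophosphate, made outside the cell from nucleotides, blocks crystal growth, and alkaline phosphatase removes that block by splitting it into phosphate. Hedgehog signal from the basal epidermis to neighbouring osteoblasts is known for its part in fin ray branching.

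Total counts ran from 16978747 in BMS replicate 2 to 22659275 in BMS replicate 4, and the upper limit for a gene with 0 counts (taken as 3 counts) was 0.132 to 0.177 CPM, in counts per 1e6 of the library total, for counting error only. BMS replicate 2 stood apart by its scaling factor (0.78, against 0.95 to 1.12 in the other libraries), and values without it are given for the results that rest on it. As a check of the treatment, the Hedgehog target genes gli1 and hhip had lower values in each BMS library than in its same-number vehicle library. Osteoblast genes were present throughout: sp7, the transcription factor gene required for osteoblast formation, was at 39.6 to 56.3 CPM in vehicle and 18.2 to 50.5 CPM in BMS. The collagen X gene col10a1a, which fish osteoblasts express, was at 2691 CPM or more in each of the 6 libraries. Osteoblasts are some of the cells in this tissue, and in such bulk samples fewer cells of a type and less RNA per cell cannot be told apart.

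None of the 7 tested bone genes was called different between BMS and vehicle by edgeR's quasi-likelihood test (adjusted p = 1 for each). This test, adjusted over all genes, called 0% of the 18541 genes. In that fit 198 genes had p under 0.05 before adjustment, and DESeq2 without the block called 1 gene, which is not a bone gene. With the replicate number as a block, the same test called 0% of genes and none of the 7 (adjusted p from 0.68 for mgp to 0.927 for enpp1). DESeq2 with the block called 0.388% of genes and again none of these (adjusted p 0.701 to 0.967). The Hedgehog targets gli1 and hhip had blocked edgeR log2 fold changes of -0.91 ± 0.19 and -1.87 ± 0.31 (SE). Neither was called in that fit (adjusted p = 0.454 and 0.342), so the lack of a call by edgeR does not show a lack of change. DESeq2 with the block called 3 of the 6 Hedgehog genes, all lower in BMS. The median log2 fold change of the 7 genes was -0.03 without the block and -0.05 with it, beside 0.01 and -0.02 over all genes. Their median absolute log2 fold change with the block was 0.08, beside 0.20 over all genes. For 6 of the 7 genes, all but mgp, the 95% interval of the blocked fold change lay within -1 and 1 on the log2 scale. The blocked interval lay within these bounds for 76.5% of all genes tested. The values over all genes were not matched for expression level. They do not show whether the bone genes varied less than genes of like level.

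**Figure D1:**
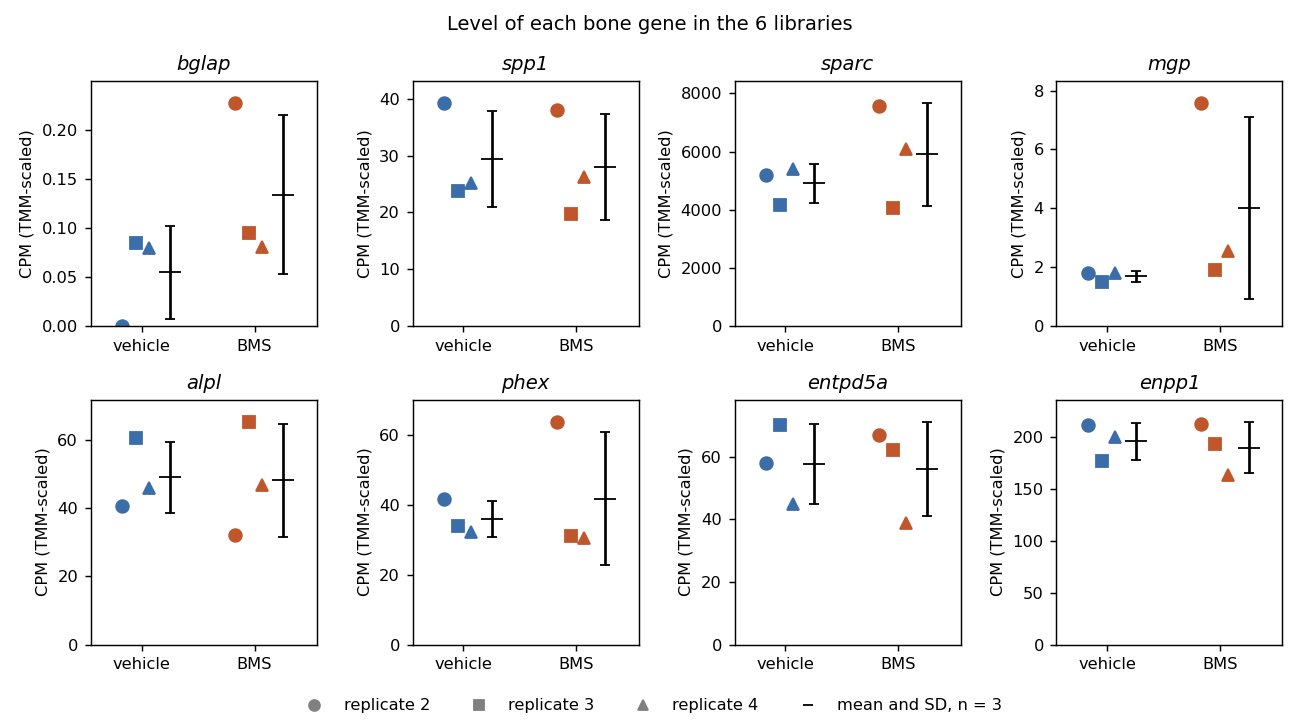
CPM relative to the TMM-scaled library size (vertical axis, from 0) of each bone gene in the 3 vehicle (blue) and 3 BMS (orange) libraries, with symbols for replicates 2, 3 and 4 and the mean and SD (n = 3) in black. The groups overlap for each tested gene except mgp, where BMS replicate 2 is at 7.57 CPM and the other BMS libraries at 1.90 and 2.55 CPM.

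Of the structural matrix proteins, sparc encodes osteonectin, a secreted glycoprotein that binds calcium and collagen and is made by osteoblasts, fibroblasts and other matrix-producing cells. In replicates 2, 3 and 4 it was at 5191, 4149.8 and 5385 CPM under vehicle and at 7559, 4055 and 6088 CPM under BMS. It took between 0.421% and 0.665% of the counts of a library. By scaled CPM, BMS replicate 2 was the highest and BMS replicate 3 the lowest of the 6, so the BMS values enclosed those of vehicle. By share of library counts the highest was BMS replicate 4 (0.665%). On that measure BMS replicate 2 (0.588%) lay below vehicle replicate 4 (0.601%). The edgeR log2 fold change was 0.27 ± 0.35 (SE) without the block and 0.23 ± 0.23 with it (95% interval -0.29 to 0.75). Without BMS replicate 2 the value without the block was 0.07.

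Osteopontin, a phosphorylated acidic protein that binds mineral and cell surface integrins, is encoded by spp1. In the GRCz12tu RefSeq table its neighbour among coding genes is scpp8, of the same family of secreted calcium-binding phosphoproteins. The level of spp1 in replicates 2, 3 and 4 was 39.2, 23.8 and 25.2 CPM under vehicle and 38.1, 19.7 and 26.3 CPM under BMS. Both libraries numbered 2 were high and the others lay between 19.7 and 26.3 CPM, whichever the treatment. Within pairs, BMS minus vehicle was -0.04, -0.27 and 0.06 log2 units for numbers 2, 3 and 4. The blocked edgeR log2 fold change was -0.08 ± 0.16, a ratio of 0.944 with a 95% interval of 0.73 to 1.22. Without the block its sign depended on the libraries kept (0.19 without vehicle replicate 2, -0.34 without BMS replicate 2).

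The genes bglap and mgp encode small proteins whose glutamates are carboxylated with the help of vitamin K, which lets them bind calcium. They are next to each other among coding genes in the GRCz12tu RefSeq table. Osteocalcin, encoded by bglap, is a product of mature osteoblasts. Its row held 0, 2 and 2 counts in replicates 2, 3 and 4 of vehicle and 3, 2 and 2 counts in those of BMS. No library had more than 3 counts, the limit used for a gene with 0 counts, so no fold change is given and a difference was not detectable at this depth. The similarly named bglapl was also low, with at most 0.537 CPM in a library, and was not tested.

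Matrix Gla protein, encoded by mgp, is an inhibitor of mineral formation known from cartilage and vessel walls in mammals. In replicates 2, 3 and 4 of vehicle its row held 37, 35 and 45 counts, or 1.81, 1.48 and 1.79 CPM. In those of BMS it held 100, 40 and 63 counts, or 7.57, 1.90 and 2.55 CPM. In scaled CPM the groups did not overlap, and BMS was higher in each pair, by 1.81, 0.28 and 0.41 log2 units for numbers 2, 3 and 4. As a share of library counts the groups did overlap, with BMS replicate 3 at 0.000197% and vehicle replicate 4 at 0.000199%. By scaled CPM, mgp was the only one of the 7 tested genes without overlap. On that measure 2.16% of all genes tested lay wholly higher in BMS, and 3.92% did not overlap in either direction. BMS was higher in 3 of 3 pairs for 14.1% of all genes.

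The edgeR log2 fold change of mgp was 1.22 ± 0.51 (95% interval 0.08 to 2.36) without the block and 1.0 ± 0.37 (0.17 to 1.84) with it. The unadjusted p was 0.039 and 0.024 in these edgeR fits, and the adjusted p over all genes was 1 and 0.68. By edgeR with total-count scaling and no block the unadjusted p was 0.057, and by limma-voom it was 0.101. Without the block 1.07% of all genes had an unadjusted p under 0.05, and with it 7.05%. The size of the difference rested on BMS replicate 2, without which the value was 0.42 (unadjusted p = 0.3 by edgeR). Without both libraries of number 2, the blocked value was 0.46 ± 0.30 (unadjusted p = 0.168 by edgeR). In BMS replicate 2 the 18 superficial and intermediate epidermis markers together were also highest, at 21021 CPM against 11826 to 15628 CPM in the other libraries. The range was 11826 to 15174 CPM in vehicle and 14333 to 21021 CPM in BMS. That library was also highest for the lists of basal epidermis, fin mesenchyme, matrix partners, phosphate enzymes and joints. It was not highest for osteoblast, osteoclast, cartilage, vitamin K, Hedgehog, or vessel, blood, nerve, pigment and immune lists. All these sums use the scaling factors, which was 0.78 for that library. The 20 cartilage markers summed to 752 to 1469.9 CPM in vehicle and 578 to 1312 CPM in BMS. Of the 2 collagen II genes in that list, col2a1a was at 0 in both libraries numbered 2 and at most 0.169 CPM elsewhere. The other, col2a1b, was at 239.6 to 661 CPM in vehicle and 167 to 642 CPM in BMS. Which cells express col2a1b here was not tested, so its level does not show that cartilage was present. The part of epidermal or other cells in the mgp difference was not tested.

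**Figure D2:**
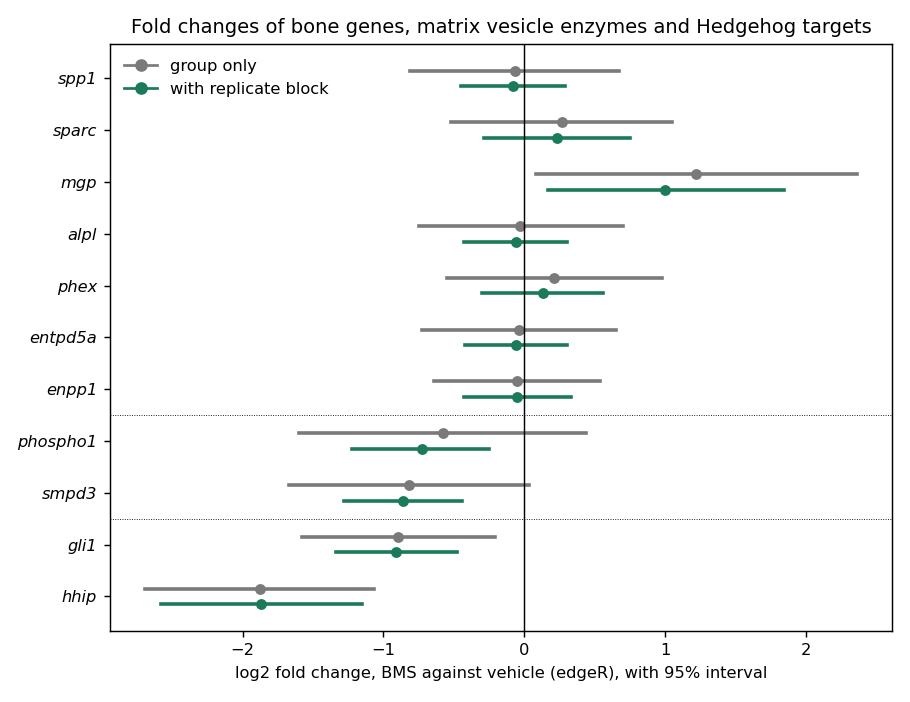
Log2 fold change of BMS against vehicle with its 95% interval (horizontal axis, edgeR quasi-likelihood fit) for the 7 tested bone genes, the matrix vesicle enzyme genes phospho1 and smpd3, and the Hedgehog targets gli1 and hhip, without the replicate block (grey) and with it (green). With the block, the bone gene intervals include 0 except that of mgp (0.17 to 1.84), and the smpd3 value is -0.86.

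The remaining genes encode enzymes. Tissue-nonspecific alkaline phosphatase, encoded by alpl, splits pyrophosphate at the osteoblast surface. In replicates 2, 3 and 4 its level was 40.7, 60.7 and 45.9 CPM under vehicle and 32.3, 65.4 and 46.8 CPM under BMS. The order of the replicates was the same in both groups, with number 3 highest and number 2 lowest. The blocked edgeR log2 fold change was -0.06 ± 0.16 (95% interval -0.43 to 0.30). The sign without the block varied with the library left out, from -0.31 without BMS replicate 3 to 0.20 without BMS replicate 2.

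The pyrophosphate-producing ectoenzyme gene enpp1 works against alpl, and zebrafish that lack it form mineral in soft tissue. Its level in replicates 2, 3 and 4 was 212, 177 and 199.7 CPM under vehicle and 213, 193 and 163 CPM under BMS. By scaled CPM, replicate 2 was highest in both groups, and BMS replicate 4 lay below the vehicle range. This order depended on the scaling. As a share of library counts, replicate 4 was highest in vehicle (0.0223%), and BMS replicate 2 was the lowest of the 6 libraries (0.0166%). The blocked log2 fold change by edgeR was -0.05 ± 0.17, a ratio of 0.963 with a 95% interval of 0.74 to 1.25.

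A nucleoside diphosphate-cleaving enzyme is encoded by entpd5a, without which zebrafish do not mineralize their bones. It was at 58.0, 70.3 and 44.8 CPM in replicates 2, 3 and 4 of vehicle and at 67.1, 62.2 and 38.9 CPM in those of BMS. The libraries numbered 4 were lowest in both groups, and the groups overlapped. Its blocked edgeR log2 fold change was -0.06 ± 0.16 (95% interval -0.42 to 0.30). The related gene entpd5b, tested in the same fit, was at -0.08 ± 0.20.

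The membrane endopeptidase encoded by phex is known from humans, in whom its loss causes phosphate wasting and soft bone. Its level in replicates 2, 3 and 4 was 41.8, 33.9 and 32.3 CPM under vehicle and 63.9, 31.0 and 30.5 CPM under BMS. BMS replicate 2 was far above the other 5 libraries, and the other BMS libraries lay below the vehicle range. The blocked edgeR log2 fold change was 0.13 ± 0.19 (95% interval -0.30 to 0.56). Without both libraries of number 2 it was -0.08, so the sign of the phex value rested on that pair.

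The ratio of 2 counts within a library does not depend on scaling, and 5 such ratios were computed after the values had been seen. The log2 ratio of alpl to enpp1, the enzymes that remove and make pyrophosphate, was -2.39, -1.55 and -2.12 in replicates 2, 3 and 4 of vehicle and -2.72, -1.56 and -1.80 in those of BMS. The group means differed by -0.01 (exact two-sided permutation test, p = 0.9). The mean log2 ratio of entpd5a to enpp1 was -1.79 in both groups (exact permutation p = 1), with an SD of 0.42 in vehicle and 0.24 in BMS. For phex to enpp1, BMS minus vehicle was 0.19 (exact permutation p = 0.9). The permutation test of the ratios took the groups as independent and did not use the same-number pairs. With 3 libraries against 3 the smallest p this test can give is 0.1.

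The spread by replicate number is given here beside the treatment value of each gene. The measures are unlike: a range over 3 means of 2 libraries tends to exceed a difference of 2 means of 3 libraries by noise alone. Their sizes therefore do not rank number against treatment. The range of the 3 number means was 0.82 log2 units for spp1, 0.79 for alpl, 0.71 for phex and 0.66 for entpd5a, while their blocked treatment values lay between -0.08 and 0.13. For sparc the range was 0.61 beside a treatment value of 0.23, and for enpp1 0.23 beside -0.05. For mgp the range, 0.99, was the largest and about the size of its treatment value of 1.0. In edgeR's quasi-likelihood test of the number term, which was added after seeing the data, spp1 passed (adjusted p = 0.0428), and alpl (0.0511), entpd5a (0.0679), phex (0.069), mgp (0.118), sparc (0.217) and enpp1 (0.572) did not. This term was called in 19.1% of all genes, and 1 of the 7 bone genes is near that share. The genes did not share 1 order of the numbers: spp1 was highest in both libraries numbered 2, alpl in both numbered 3, and entpd5a was lowest in both numbered 4. What the number stands for is not given in the labels.

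**Figure D3:**
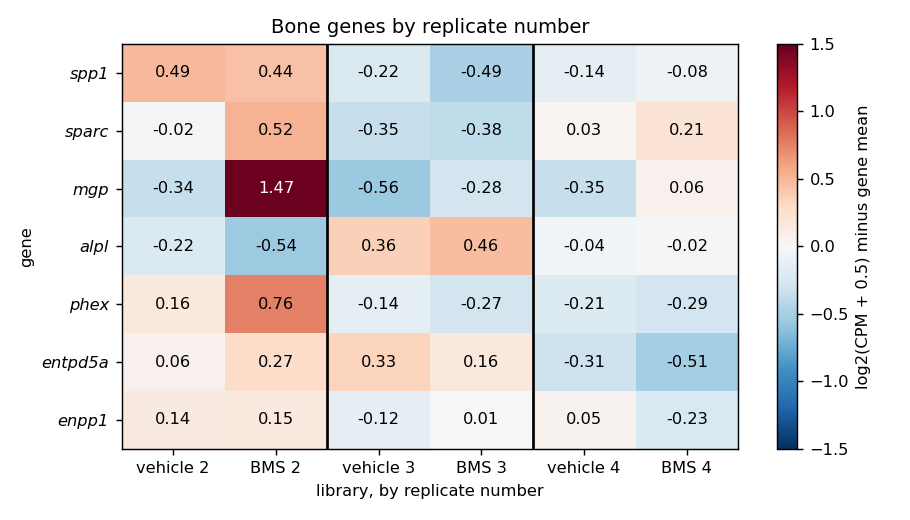
Deviation of each tested bone gene from its mean over the 6 libraries, as log2(CPM + 0.5), with libraries ordered by replicate number and vehicle beside BMS. Same-number libraries have like values for spp1 (0.49 and 0.44 in number 2) and alpl (0.36 and 0.46 in number 3), and the highest value is that of mgp in BMS replicate 2 (1.47).

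Without the block, the biological coefficient of variation, the replicate spread beyond counting noise as edgeR estimates it, ran from 0.255 for enpp1 to 0.43 for mgp. The median over genes with a mean of at least 10 CPM was 0.293, a set that leaves out mgp for its low level. Over all genes tested the median was 0.31. With the block the coefficient fell to between 0.155 for entpd5a and 0.294 for mgp. The median was then 0.167 at 10 CPM or more and 0.186 over all genes tested.

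Other genes of mineral formation were read from lists of phosphate and pyrophosphate enzymes, matrix partners, and vitamin K enzymes and secretory kinases. Of the first list, 28 of 36 genes were tested, and none was called by edgeR or by DESeq2 with the block when all 6 libraries were used. With the block in edgeR, 10 had positive and 18 negative values (median -0.06), and without number 2 these were 15 and 13 (median 0.02). The largest absolute values at 1 CPM or more were those of smpd3, phospho1 and enpp4. Neutral sphingomyelinase, encoded by smpd3 and needed for normal bone mineral in mice, was at 13.3, 22.7 and 13.5 CPM in replicates 2, 3 and 4 of vehicle and 6.21, 14.2 and 7.56 CPM in those of BMS. The BMS library had the lower value in 3 of 3 pairs, although BMS replicate 3 was above vehicle replicates 2 and 4. BMS was lower in 3 of 3 pairs for 17.5% of all genes. The blocked log2 fold change of smpd3 was -0.86 ± 0.18 (edgeR adjusted p = 0.454, DESeq2 adjusted p = 0.0873). Without number 2 it was -0.73 ± 0.16 (edgeR adjusted p = 0.241). Without number 3 the smpd3 value was -0.99 ± 0.28 (edgeR adjusted p = 0.029), in a fit that called 392 genes. Without number 4 it was -0.88 ± 0.35. For enpp4 the blocked value was -0.63 ± 0.33, with BMS replicate 3 (17.4 CPM) above vehicle replicate 3 (15.1 CPM). Without number 3 the blocked enpp4 value was -1.15 ± 0.31 (edgeR adjusted p = 0.0191). Without number 2 it was -0.20 ± 0.22 (edgeR adjusted p = 0.903), and without number 4 -0.66 ± 0.38, which did not pass. In the fit without the block, leaving out BMS replicate 2 gave 0.14 for enpp4.

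The phosphatase encoded by phospho1 releases phosphate inside matrix vesicles, the particles that osteoblasts shed and in which mineral first forms. It was at 36.3, 65.4 and 42.0 CPM in replicates 2, 3 and 4 of vehicle and 14.7, 55.4 and 25.8 CPM in those of BMS. BMS was lower in 3 of 3 pairs, which held for 17.5% of all genes. Number 3 was highest in both groups, as for alpl. The blocked log2 fold change of phospho1 was -0.73 ± 0.21 (edgeR adjusted p = 0.616, DESeq2 adjusted p = 0.23). Without both libraries of number 2 it was -0.45 ± 0.15 (edgeR adjusted p = 0.506). Without number 3 the phospho1 value was -1.02 ± 0.23 (edgeR adjusted p = 0.0026), in the fit that called 392 genes. Without number 4 it was -0.76 ± 0.31 and did not pass 0.05. The log2 ratio of phospho1 to alpl was -0.16, 0.11 and -0.13 in replicates 2, 3 and 4 of vehicle and -1.14, -0.24 and -0.86 in BMS, without overlap of the groups. That of smpd3 to alpl was -1.61, -1.42 and -1.77 in vehicle and -2.38, -2.20 and -2.63 in BMS. Each of these ratios differed at the smallest p the exact permutation test allows (0.1, and 0.25 adjusted over the 5 ratios by Benjamini-Hochberg), so neither passed 0.05. Both were chosen for their values, so the lack of overlap is a description.

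The remaining enzymes and transporters of that list lay closer to 0. The pyrophosphate channel gene ankha was at 0.16 ± 0.17 in the blocked edgeR fit, and the phosphate transporter genes slc20a1b and slc20a2 were at 0.40 ± 0.18 and -0.06 ± 0.18. Another alkaline phosphatase gene, alpi.1, was at 394 to 821 CPM in 5 libraries and at 1040.2 CPM in BMS replicate 2, with a value of -0.06 ± 0.20.

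Of the matrix partners, 35 of 49 genes were tested, with 18 positive and 17 negative values in the blocked fit (median 0.01) and none called. The largest absolute values at 1 CPM or more were those of ucmaa, which encodes another vitamin K-dependent protein (0.69 ± 0.26), the collagen prolyl hydroxylase subunit gene p4ha1a (-0.47 ± 0.16) and smoc2, related to sparc (0.46 ± 0.29). The level of ucmaa was 3.12, 3.33 and 3.29 CPM in replicates 2, 3 and 4 of vehicle and 7.64, 4.33 and 4.41 CPM in those of BMS. Its groups did not overlap, with BMS replicate 2 highest as for mgp. Of all genes tested, 2.16% lay wholly higher in BMS and 3.92% did not overlap in either direction. The gene ucmaa was named for its large value and did not pass (edgeR adjusted p = 0.687 with the block). Without both libraries of number 2 its blocked value was 0.42. Phosphoproteins related to spp1 were at 0.14 ± 0.20 for scpp1, 0.39 ± 0.20 for scpp5 and -0.01 ± 0.20 for scpp7. The neighbour of spp1, scpp8, was at 1.03 ± 0.48 (edgeR adjusted p = 0.687), at the low level of 0.380 to 0.537 CPM in vehicle and 0.378 to 1.41 CPM in BMS.

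Of the vitamin K and secretory kinase list, which also holds genes of phosphate and calcium hormones, 21 of 31 genes were tested, with a blocked median of -0.08 and none called. The vitamin K-dependent carboxylase gene ggcx, whose product modifies osteocalcin and matrix Gla protein, was at -0.16 ± 0.15. The kinase genes fam20ca and fam20cb, whose product in mammals phosphorylates osteopontin, were at -0.18 ± 0.22 and -0.19 ± 0.20. The largest absolute values were those of cyp27b1 (vitamin D activation, -0.73 ± 0.20), pth1ra (parathyroid hormone receptor, -0.72 ± 0.30) and cyp24a1 (vitamin D breakdown, 0.64 ± 0.33).

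**Figure D4:**
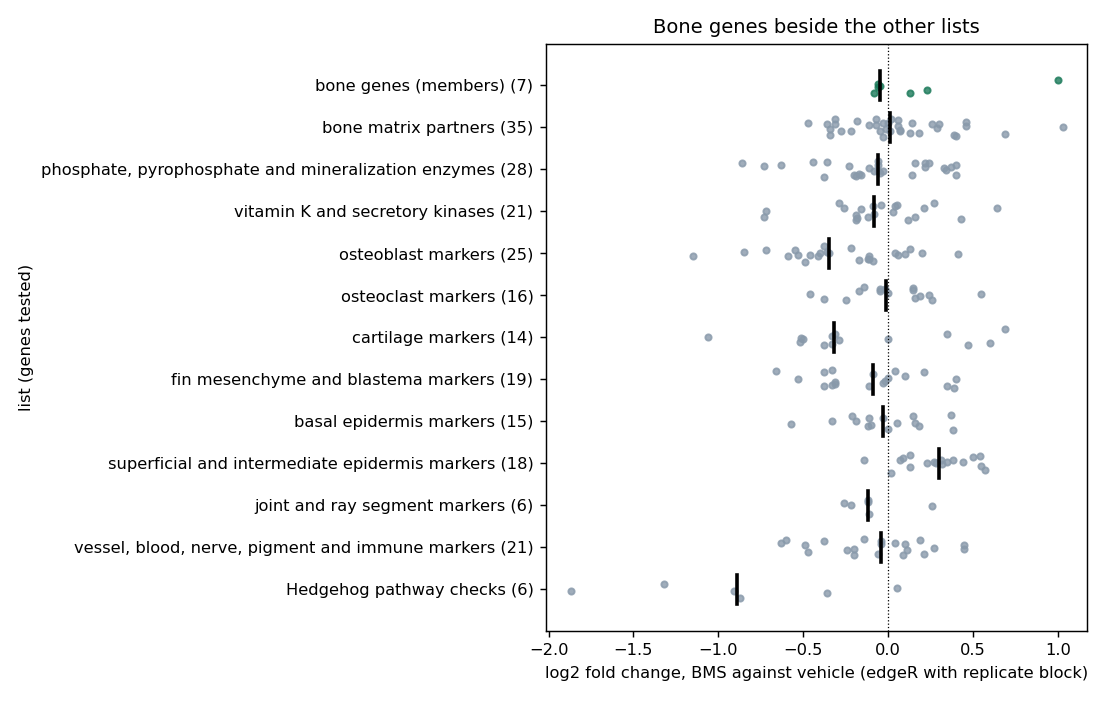
Log2 fold change of BMS against vehicle with the replicate block in edgeR (horizontal axis) for each tested gene of the bone gene set and of 12 other lists, with the number tested in brackets and the median as a black line. The bone genes have a median of -0.05, osteoblast markers -0.35 and the Hedgehog genes -0.89.

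Osteoblast markers, a list of 25 genes all tested, were negative in 19 and positive in 6 in the blocked edgeR fit. Their median was -0.35, beside a median of -0.02 over all genes, and none was called with all 6 libraries. BMS was lower in 3 of 3 pairs for 11 of the 25, where this held for 17.5% of all genes. Without both libraries of number 2, 22 were negative and 3 positive (median -0.27). Superficial and intermediate epidermis markers went the other way, positive in 17 of 18 (median 0.30, and 0.15 without number 2), with none called. Their part in the values of the osteoblast markers and the bone genes was not tested. The transcription factor genes runx2b (-0.72 ± 0.25) and sp7 (-0.59 ± 0.22) had adjusted p-values of 0.663 and 0.679 by edgeR. Without number 2 the blocked values were -0.38 for runx2b and -0.27 for sp7 (edgeR adjusted p = 0.665 and 0.714). Without number 3 they were -1.01 and -0.85 (edgeR adjusted p = 0.0412 and 0.0207), in the fit that called 392 genes. Without number 4 they were -0.83 and -0.68, and neither passed. The genes ifitm5 and panx3, expressed by osteoblasts that make mineralizing matrix, were at 0.10 ± 0.23 and 0.04 ± 0.20. Like phex, both were highest in BMS replicate 2. The summed level of the list was 22306 to 49033 CPM in vehicle and 17299 to 46031 CPM in BMS. It was carried by a few abundant genes, with col1a1a alone at 7289 to 25053 CPM in vehicle and 4671 to 21399 CPM in BMS. The difference between these markers and the bone genes was not tested.

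The 16 osteoclast markers, genes of the cells that resorb bone, split into 8 positive and 8 negative values with the block (median -0.01, and 0.14 without number 2), and none was called. Their summed level, 1327 to 1363 CPM in vehicle and 1429 to 1660 CPM in BMS, was carried by a few abundant genes. The matrix-degrading protease gene ctsk was at 449 to 807 CPM, with a value of 0.24 ± 0.18. The carbonic anhydrase gene ca2 ranged from 123 CPM in BMS replicate 2 to 541 CPM in BMS replicate 3, the library with the highest sum, and had a value of -0.02 ± 0.23. Of the 14 cartilage markers tested, 9 were negative and 5 positive with the block in edgeR. Their median was -0.32, near that of the osteoblast markers, and -0.16 without number 2. BMS was lower in 3 of 3 pairs for 7 of them and higher in 3 of 3 pairs for 3. From this list sox9a was called lower by DESeq2 with the block (adjusted p = 0.00624, blocked edgeR value -1.06 ± 0.20 with an adjusted p of 0.416). This gene is also known from skeletal progenitors.

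For each tested bone gene, the genes with the most similar profile over the 6 libraries were found among those with a mean of at least 10 CPM, by the root mean square difference of centred log2 levels. Among 9997 genes, the closest to sparc were psmg3 (0.016 log2 units) and btf3l4 (0.019). For alpl they were kpna6 (0.051) and nt5c1bb (0.064), for phex sec62 (0.032) and wdr45b (0.036), for entpd5a nadkb (0.073) and insra (0.074), and for enpp1 dnajb11 and mamdc2a (0.046 each). The closest to spp1 were fgf10a (0.090) and gar1 (0.097). For mgp the closest were AL929057.1 (0.134) and aqp8a.1 (0.164), which were also highest in BMS replicate 2, at 35.2 and 301 CPM. Among the bone genes themselves the closest were spp1 and phex (0.228) and the farthest alpl and mgp (0.962). All these profiles come from the same 6 libraries and share their depth and scaling.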

How the data were processed

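RNA-seq data of 6 libraries (3 vehicle, 3 BMS) were used. The authors deposited whole-number read counts per gene (31901 rows) and a normalized signal table on a CPM scale (11549 rows, column sums 908876 to 1230418). Per the submitters' processing notes, edgeR 4.3.2, HTSeq 0.6.1, Bowtie2 2.33 and TopHat2 2.1.1 were used with the build GRCz11. For the annotation and strand setting, the sources used here give nothing, so reads of overlapping or antisense genes cannot be separated. The compound number in the labels differs in its last digit between the BMS libraries, and all 3 were taken as BMS-833923, the compound of the design text.

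Counts were tested with edgeR 4.0.16 (limma 3.58.1, R 4.3.3) by the quasi-likelihood F test, two-sided, with TMM scaling, filterByExpr by group and Benjamini-Hochberg adjustment over 18541 genes at a threshold of 0.05. CPM in the text is relative to the TMM-scaled library size. Profiles and within-pair differences used log2(CPM + 0.5). Where several rows share a name, the row with the highest mean count was used. DESeq2 1.42.0, limma-voom, other scalings, no filter, limma on log2(signal + 1) and left-out libraries were alternatives. The fits were also run on simulated data, with the outcome not reported here. An adjusted p that DESeq2 did not give was left out. Permutation tests used scipy 1.17.1.

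Same-number libraries deviated together: the correlation across genes of deviations from group means was 0.58, 0.55 and 0.62 for numbers 2, 3 and 4, and -0.50 to -0.16 otherwise. Deviations within a group cancel out by centring, so the negative values follow from the positive ones and add no support. On the same-number values the numbers were taken as pairs, a pairing read from the data and not stated in the labels. No library was a copy of another of its group (chi-square of their counts, 32.9 to 131.9 per degree of freedom).

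The bone genes and lists were chosen with earlier results of these data known. Named from each list were the 3 genes of largest absolute blocked value at a mean of 1 CPM or more, any called gene, and further genes chosen for their role after their values were seen. Some genes that this rule names are not reported here. Of 271 listed genes, 260 were matched by symbol or by synonym in RefSeq's GRCz12tu table, used for names and neighbours only.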

Additional observations from a re-analysis of the deposited data

How the results depend on the processing

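No bone gene was called under any of the 18 alternatives run, those with the replicate block included (smallest adjusted p 0.0589, for mgp by edgeR with the block and without number 3), and mgp and sparc stayed positive in each one that could be computed. With 1 library left out, or with both libraries of a number left out in the blocked fit, the log2 fold change ran from -0.34 to 0.19 for spp1, 0.07 to 0.47 for sparc, 0.42 to 1.56 for mgp, -0.31 to 0.20 for alpl (0.09 with the block and without number 2), -0.22 to 0.40 for phex (-0.08 likewise), -0.20 to 0.16 for entpd5a (0.02 with the block and without number 4) and -0.17 to 0.06 for enpp1 (0.05 without BMS replicate 4). The median of the bone genes ran from -0.14 to 0.19. The cause of these changes of sign was not tested. Over all genes, the count called was 0 by edgeR without and with the replicate block, 1 by DESeq2 and 72 by DESeq2 with the replicate block, and 0 to 392 with libraries left out (9, 392 and 12 in the blocked fit without number 2, 3 and 4). The blocked fits without a number kept 2 pairs of libraries, so their p-values rest largely on variance estimates shared across genes. The median over all genes shifted by -0.11 under total-count scaling, which turned the sign of no bone gene. The authors' table lacks mgp and bglap. Depth limits bglap, with at most 3 counts per library, and mgp, with 35 to 100.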
